A study of Mus musculus with 24 samples.

Results

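The nuclear genes for the subunits of the respiratory chain and ATP synthase were followed in RNA-seq of mouse hearts that lacked Xinβ (gene Xirp2), an intercalated disc protein. Members were chosen by name, with earlier results of these data known. They are protein-coding genes whose mouse symbols begin as those of complex I (Nduf with a, b, c, s or v and a number), II (Sdha to Sdhd), III (Uqcr), IV (Cox4 to Cox8) or V (Atp5). Pseudogenes and assembly factors were left out. The annotation holds 85 such gene identifiers under 84 symbols, and 82 of them were listed in each deposited table, among 15667 genes in uninjected and 15327 in injected hearts. All 82 passed the filter on low values, a level above 1 CPM (reads scaled to a common library size) in at least 0.5 of a table's libraries, so no member was lost to it. They comprised 35 genes of complex I, 4 of complex II, 8 of complex III, 18 of 20 of complex IV and 17 of 18 of complex V. Cox7b2, Cox8c and a second identifier of Atp5o (ENSMUSG00000116933) were not in the listed genes. Ndufa4 and its relative Ndufa4l2 carry complex I names but were counted with complex IV, where the Ndufa4 protein sits.

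Complexes I to IV of the inner mitochondrial membrane pass electrons from NADH and succinate to oxygen, and complexes I, III and IV pump protons as they do so. Complex V, the ATP synthase, lets the protons back and makes ATP. Most subunits are encoded in the nucleus and a few, in the cores of I, III, IV and V, in mitochondrial DNA. The heart depends on these complexes more than most tissues, and several complex IV subunits come in a muscle form and a form made in most tissues.

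The study held 24 libraries in 6 groups of 4, all from the heart at postnatal day 7.5, with tissue labelled heart apex where the study's methods name the ventricles. A first set compared uninjected XinBeta KO hearts (Xinβ KO) with uninjected Wildtype hearts (WT). The second set held KO/GFP, KO/YAP, WT/GFP and WT/YAP hearts, which had received adeno-associated virus AAV9 at postnatal day 1. The virus carried GFP or aYAP(S127A), an active human YAP whose inhibitory phosphorylation site is changed, under a chicken cardiac troponin T promoter that is active in cardiomyocytes. The knockout was germline, with part of Xirp2 replaced by a LacZ-Neo cassette, on a C57BL6 background with littermate controls, and each group mixed males and females. The 16 injected hearts all carried a virus, so GFP is the control for injection. Each library has an identifier of its own in its label, and the study's reporting notes describe the RNA-seq replicates as biological. The labels do not say whether each identifier is 1 animal, and p-values measure the spread between these libraries.

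Xirp2 itself was at 0.291 to 0.692 CPM in the uninjected KO libraries and at 106 to 168 CPM in the uninjected WT libraries. It was listed at 0 to 0.972 CPM in the 8 injected KO libraries and at 56.0 to 149 CPM in the 8 injected WT libraries, so every library matched its genotype label. Libraries held between 15015038 and 31154155 reads on listed genes. Reads here are whole units recovered from the deposited CPM, which rest on quantified transcripts, and need not equal sequenced reads. All 10 cardiomyocyte markers were present, with sums of 50442 to 79264 CPM per library. Of 6 brown adipocyte markers 1, Cidea, was listed, at 26.9 to 67.7 CPM, and of 7 skeletal muscle markers 1 in uninjected and 2 in injected hearts, with sums of at most 6.17 CPM. Uninjected hearts were read with single 50 nt reads and injected hearts with paired 150 nt reads and were normalised apart, so no test crossed the tables.

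Per kilobase of exon, the members covered a wide range. The length counts every annotated exon of a gene, so levels per kb and their ranking also depend on its annotation. In uninjected WT hearts the median of the 82 members was 196.5 CPM per kb, and it lay between 196.5 and 228.8 CPM per kb in the 6 groups. Atp5a1 and Atp5b, the α and β subunits that form the catalytic head of ATP synthase, were at 1079 and 1005 CPM per kb in uninjected WT hearts. Cox6b1, a complex IV subunit on the intermembrane side, and Cox6a2, the heart and skeletal muscle form of subunit VIa, followed at 847 and 815 CPM per kb. Cox6b2, known as the testis form of subunit VIb, was the lowest member there at 2.46 CPM per kb, and Atp5s, which encodes an accessory coupling factor, was next at 5.48 CPM per kb. Complex I genes had the lowest median of any complex in uninjected WT hearts, 128 CPM per kb, and complex II genes the highest, 302 CPM per kb.

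Genes for interchangeable subunits differed widely in level. The 3 genes Atp5g1, Atp5g2 and Atp5g3 encode the same mature c subunit of the proton-carrying ring, and Atp5g3 had the highest level of the 3 in every group. It was at 456 CPM per kb in uninjected WT hearts against 82.1 for Atp5g1 and 47.4 for Atp5g2, and at 640, 186 and 158 CPM per kb in WT/GFP hearts. The exon lengths used were 2181 bp for Atp5g3, 4912 bp for Atp5g1 and 1675 bp for Atp5g2, which shapes these gaps. In CPM without the length, WT/GFP libraries were at 1251 to 1592 for Atp5g3, 792 to 1049 for Atp5g1 and 236 to 294 for Atp5g2. Ndufa4 was at 380 CPM per kb in uninjected WT hearts and Ndufa4l2, whose product is known from hypoxia, at 15.5. Cox4i1, the common form of subunit IV, was at 534 CPM per kb and Cox4i2, known from lung and hypoxia, at 10.5.

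In the uninjected hearts most members sat somewhat higher in the KO, but 1 library carried most of that difference. The median log2 fold change, KO over WT on the log2(CPM + 1) scale, was 0.18 over the 82 members against 0.00 over all tested genes, and 76 of 82 members were positive. Without KO replicate 1 the member median was 0.01, against −0.00 over all genes, and 44 members were positive. It was 0.04 (57 positive) under total-read scaling, against −0.12 over all genes, 0.07 (58 positive) under quantile normalisation, against 0.02, and 0.08 (66 positive) with centring on short genes, against −0.10. By complex the medians were 0.17 for I, 0.12 for II, 0.19 for III, 0.18 for IV and 0.21 for V. Only Cox6b2 passed the test (limma, Benjamini-Hochberg adjusted p under 0.05 over all genes), and it was higher. That is 1 of 82 members, where 6.69% of all 15598 tested genes passed in either direction and 3.23% passed as higher. At an unadjusted p under 0.05 there were 4 members, against 22.5% of all genes. DESeq2 called 2 members and 12.5% of all genes, and edgeR 1 member and 6.13% of all genes.

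KO replicate 1 stood apart for the whole group of genes. In it, 81 of 82 members lay above their mean over the 8 uninjected libraries, and the median deviation of the members was 0.67 on the log2 scale. The other 3 KO libraries were at −0.10 to −0.05 and the WT libraries at −0.17 to −0.02. The members took up 4.83% of the signal in that library and between 3.37% and 3.78% in the other 7. Other short genes moved with them: the members have a median exon length of 1560 bp against 4576 bp for all tested protein-coding genes, and 693 other protein-coding genes of at most 1495 bp deviated by a median of 0.49 in KO replicate 1. In the injected set KO/GFP replicate 2 was the highest library, at 0.46 for the members and 0.30 for 710 other short genes. The part of transcript length or RNA quality in these libraries was not tested.

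**Figure D1:**
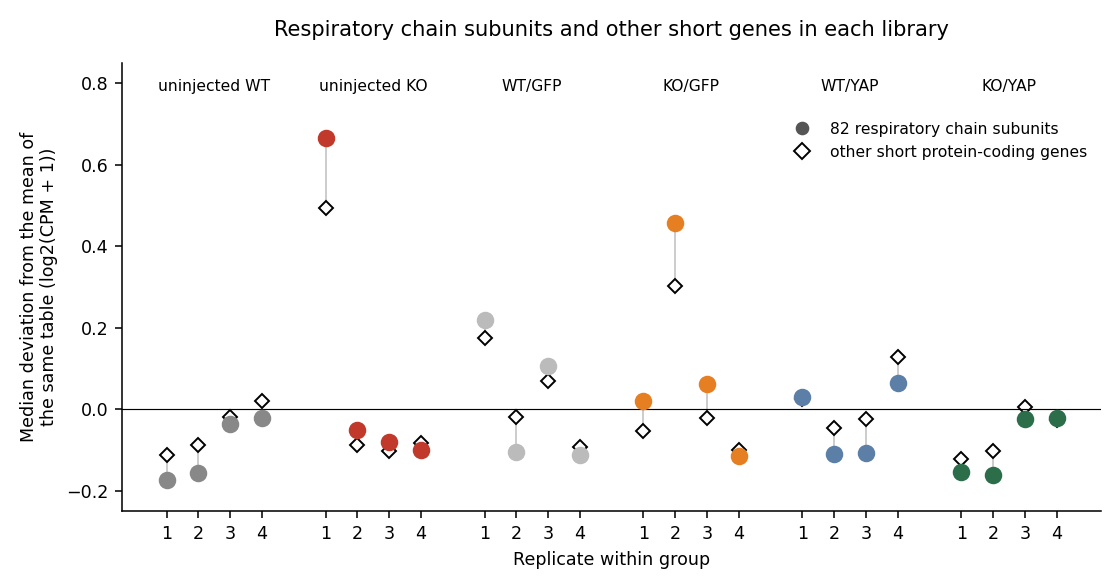
Median deviation of the 82 members (filled circles) and of the other short protein-coding genes (open diamonds) from their mean over the libraries of the same table, in log2(CPM + 1) units, for each of the 24 libraries by group and replicate. Uninjected KO replicate 1 lies highest at 0.67, followed by KO/GFP replicate 2 at 0.46, and the short genes follow the members in both.

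Cox6b2 was at 6.51, 4.45, 4.55 and 4.86 CPM in the 4 uninjected KO libraries and at 2.17, 3.30, 2.71 and 2.72 CPM in the WT libraries, and the groups did not overlap. Its log2 fold change was 0.70 (SE 0.15, limma adjusted p = 0.027), a call kept under 13 of 20 alternatives. A filter above 5 CPM removes it with the gene, and it ended under centring on short genes, with the replicate block and without each of KO replicate 2 and WT replicates 1, 3 and 4. Cox6b2 is a low gene, and adding 1 CPM before the log understates its change.

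Atp5c1 encodes the γ subunit, the rotating shaft of the ATP synthase, and Uqcrh the hinge protein of complex III. Atp5c1 was at 1198, 885, 862 and 882 CPM in the uninjected KO libraries and at 677, 711, 684 and 733 CPM in the WT libraries. The groups did not overlap, at a log2 fold change of 0.43 (SE 0.12, limma adjusted p = 0.065). Uqcrh was at 449, 274, 269 and 449 CPM in the KO against 235.1, 249.96, 262.7 and 265.8 CPM in the WT libraries, with a log2 fold change of 0.46 (SE 0.19, adjusted p = 0.18, limma). The KO libraries of Uqcrh fell into a high and a low pair. The gene overlaps a pseudogene, Gm12854, on the other strand, and reads of the pair cannot be told apart if counting ignored strand.

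Groups that did not overlap were found for 9 of 82 members, all higher in the uninjected KO, where 8.01% of all tested genes were separated in that direction. Besides the 3 genes above they were Ndufv2, Sdha, Cox7b, Atp5a1, Atp5b and Atp5o. Sdha, the flavoprotein of succinate dehydrogenase, was at 1587, 1624, 1723 and 1590 CPM in the KO and at 1524, 1487, 1520 and 1493 CPM in the WT. Its separation did not rest on replicate 1, which was the lowest of the KO libraries. The 95% interval of the fold change lay within 0.5 of 0 on the log2 scale for 20 of 82 members and within 1 for 81.

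The injected hearts repeat the genotype comparison under GFP, and there the members as a group were close to all genes. The median log2 fold change of KO/GFP over WT/GFP was 0.03, against −0.01 over all genes, with 53 of 82 positive. It was −0.04 without KO/GFP replicate 2, against −0.01 over all genes, −0.03 under quantile normalisation, against −0.00, and −0.08 when libraries were scaled to total reads, against −0.11. Leaving out any 1 of the 8 libraries moved it by over 1.5 times, up to 0.11 with 69 positive without KO/GFP replicate 4 and 0.10 with 67 positive without WT/GFP replicate 1. By complex the medians were 0.02 for I, −0.01 for II, 0.03 for III, 0.10 for IV and 0.08 for V. Atp5c1 and Ndufv1 passed the limma test, both higher, 2 of 82 members where 13.7% of all 14597 tested genes passed in either direction and 6.43% as higher. At an unadjusted p under 0.05 there were 5 members, against 27.4% of all genes. DESeq2 and edgeR each called the same 2 members, and 16.4% and 13.0% of all genes. The 95% interval lay within 0.5 of 0 for 72 of 82 members.

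Atp5c1 was at 637, 669.7, 641 and 795 CPM in KO/GFP and at 576, 518, 574 and 515 CPM in WT/GFP libraries. Every KO/GFP library lay above every WT/GFP library, with a log2 fold change of 0.33 (SE 0.08, limma adjusted p = 0.015). Ndufv1 encodes the subunit of complex I that binds NADH and FMN. It was at 472, 422, 474 and 455 CPM in KO/GFP and at 404.8, 372.6, 404.3 and 385.7 CPM in WT/GFP libraries, also without overlap, with a log2 fold change of 0.22 (SE 0.07, adjusted p = 0.037, limma). These were the only members with separate groups higher in KO/GFP, where 7.32% of all genes were separated in that direction. Under 21 alternatives the call of Atp5c1 was kept in 15 and that of Ndufv1 in 9. The call of Ndufv1 ended without any of KO/GFP replicates 1, 3 and 4 and WT/GFP replicates 1, 2 and 4, and under total-read scaling, centring on short genes, quantile normalisation, the replicate block, limma without the trend or a fit of these 2 groups alone. That of Atp5c1 ended without KO/GFP replicate 4 (795 CPM) or WT/GFP replicate 2, and under total-read scaling, centring on short genes, quantile normalisation or a fit of these 2 groups alone.

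Active YAP in the KO was the comparison with the most members passing. Of 82 members 6 fell in KO/YAP against KO/GFP, and none rose, where 14.8% of all 14597 tested genes passed in either direction and 6.92% as lower (1010 genes, beside 1146 higher). They were Atp5c1 of complex V, Cox6a2 and Cox6b2 of complex IV, and Ndufa6, Ndufa7 and Ndufv1 of complex I. At an unadjusted p under 0.05 there were 22 members, against 29.6% of all genes. DESeq2 called 10 members and 17.9% of all genes, and edgeR 6 members and 14.4% of all genes. The genes DESeq2 added were Cox7a2l, Cox7b, Ndufa9 and Ndufb9, all lower. This comparison and that of KO/GFP with WT/GFP share the 4 KO/GFP libraries, so a high value there raises the one and lowers the other.

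The 6 genes that passed as lower in KO/YAP were 7.32% of members, beside 6.92% of all genes. The bases just upstream of the start are shown for the 5 of these 6 genes that have a promoter window. They are from RefSeq on GRCm38.p6, the strand of the gene, 5′ to 3′, and end where the annotated gene begins, at chr2:10080511-10080710 (minus strand) for Atp5c1, chr19:4012807-4012955 (minus) for Ndufv1, chr15:82354323-82354491 (minus) for Ndufa6, chr17:33824372-33824571 (plus) for Ndufa7 and chr7:4753095-4753294 (minus) for Cox6b2. Capitals mark, in Ndufa6, the letters of nuclear respiratory factor 1 (NRF1), a regulator of many mitochondrial genes, and, in Cox6b2, those of the general factor Sp1.
Atp5c1: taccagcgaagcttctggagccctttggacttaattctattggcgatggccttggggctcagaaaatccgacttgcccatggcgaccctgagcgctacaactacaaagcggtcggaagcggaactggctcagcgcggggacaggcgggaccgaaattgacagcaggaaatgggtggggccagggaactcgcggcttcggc
Ndufv1: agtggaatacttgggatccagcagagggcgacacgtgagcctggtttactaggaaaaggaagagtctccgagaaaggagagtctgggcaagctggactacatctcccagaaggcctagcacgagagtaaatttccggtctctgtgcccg
Ndufa6: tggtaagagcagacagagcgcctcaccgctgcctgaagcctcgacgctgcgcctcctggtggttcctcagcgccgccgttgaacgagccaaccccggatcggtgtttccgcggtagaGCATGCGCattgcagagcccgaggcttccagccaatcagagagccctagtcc
Ndufa7: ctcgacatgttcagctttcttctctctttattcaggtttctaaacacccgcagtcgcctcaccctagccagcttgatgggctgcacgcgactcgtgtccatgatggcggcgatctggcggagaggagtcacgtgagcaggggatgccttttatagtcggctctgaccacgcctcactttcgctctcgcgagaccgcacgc
Cox6b2: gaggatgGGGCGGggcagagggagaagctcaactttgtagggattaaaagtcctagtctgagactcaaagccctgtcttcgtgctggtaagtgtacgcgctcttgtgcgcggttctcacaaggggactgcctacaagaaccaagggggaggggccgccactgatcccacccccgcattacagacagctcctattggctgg
Promoter windows of 300 bases were found for 65 of the 82 members, and 10 (15.4%) held GCATGCGC on either strand, the letters used for NRF1, against 3.76% of 16522 genes. CCGGAAG, for ETS factors such as GABP, was in 23.1% of members and 12.3% of all genes. AAGATGG, for YY1, was in 13.8% and 6.43%, and AAGGTCA, for the estrogen-related receptors, in 12.3% and 3.92%. GGGCGG, for Sp1, was in 38.5% and 48.2%. CATTCC, the core of the TEAD site through which YAP acts, was in 7 members (10.8%) against 13.2% of all genes. Those 7 were Atp5d, Atp5j2, Cox5a, Ndufa8, Ndufa9, Ndufb11 and Ndufs7. A match is a run of letters, not a bound site.

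Cox6a2 (ENSMUSG00000030785) lies at chr7:128205435-128206387 on the minus strand of GRCm38 and has 680 bp of exon. It was at 762, 1099, 742 and 711 CPM in KO/GFP and at 502, 517, 560.1 and 563 CPM in KO/YAP libraries. All KO/YAP libraries lay below all KO/GFP libraries, and replicate 2 of KO/GFP stood far above the other 3. The log2 fold change was −0.61 (SE 0.14, limma adjusted p = 0.0075), and the call was kept under all 21 alternatives run, without KO/GFP replicate 2 among them. WT/GFP libraries were at 783, 572, 729 and 550.3 CPM and WT/YAP libraries at 646, 579, 593 and 707 CPM, so WT/GFP overlapped both and WT/YAP lay between them. The gene lies wholly inside Itgad on the other strand, which was at 0.400 to 2.16 CPM in the injected libraries.

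Atp5c1 (ENSMUSG00000025781, chr2:10056016-10080510, minus strand) was at 496, 518, 506 and 544 CPM in KO/YAP libraries, below the lowest KO/GFP library at 637 CPM. Its log2 fold change was −0.41 (SE 0.08, limma adjusted p = 0.0039), a call kept under 20 of 21 alternatives and lost under centring on short genes. WT/GFP, WT/YAP and KO/YAP means were 546 ± 34.1, 522 ± 29.4 and 516 ± 20.9 CPM (SD, n = 4), beside 686 ± 74.1 in KO/GFP. The change with YAP in the KO minus that in the WT was −0.34 (SE 0.12, limma adjusted p = 0.085).

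Of the genes that passed, 3 belong to complex I. Ndufa6 and Ndufa7 encode accessory subunits on the matrix side. Ndufa6 (ENSMUSG00000022450, chr15:82350140-82354322, minus strand) was at 182, 230.0, 153 and 160 CPM in KO/GFP and at 133, 113, 136 and 140 CPM in KO/YAP libraries. Its groups did not overlap, and its log2 fold change was −0.46 (SE 0.14, limma adjusted p = 0.035). Ndufa7 (ENSMUSG00000041881, chr17:33824572-33838317, plus strand) was at 127, 182, 140 and 127 CPM in KO/GFP and at 101, 107, 115 and 115 CPM in KO/YAP libraries, with a log2 fold change of −0.38 (SE 0.11, limma adjusted p = 0.030). Both calls ended without KO/GFP replicate 2, the highest library for each gene, and without KO/YAP replicate 1 or 2, and that of Ndufa6 also without KO/GFP replicate 1 or KO/YAP replicate 3. Over 21 alternatives the call of Ndufa6 was kept in 12 and that of Ndufa7 in 14, and both also ended under total-read scaling, quantile normalisation, a fit of these 2 groups alone and the replicate block. Ndufv1 (ENSMUSG00000037916, chr19:4007384-4012806, minus strand) was at 365.8, 396.3, 391.6 and 406.0 CPM in KO/YAP, all below KO/GFP, with a log2 fold change of −0.22 (SE 0.07, limma adjusted p = 0.031). That call was kept in 9 of 21 alternatives and ended without any of 3 KO/GFP or 3 KO/YAP libraries, KO/GFP replicate 2 and KO/YAP replicate 4 being the exceptions. The other 6 that ended it were total-read scaling, centring on short genes, quantile normalisation, the replicate block, limma without the trend and the fit of the 2 groups alone.

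Cox6b2 (ENSMUSG00000051811, chr7:4751792-4753094, minus strand) was at 5.84, 11.1, 6.61 and 4.41 CPM in KO/GFP and at 2.20, 3.51, 3.83 and 3.66 CPM in KO/YAP libraries. The groups did not overlap, and its log2 fold change was −0.85 (SE 0.24, limma adjusted p = 0.027). The call was kept under 17 of 21 alternatives. It ended without KO/GFP replicate 2, without KO/YAP replicate 1 and in a fit of the 2 groups alone, and a filter above 5 CPM removes the gene.

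**Figure D2:**
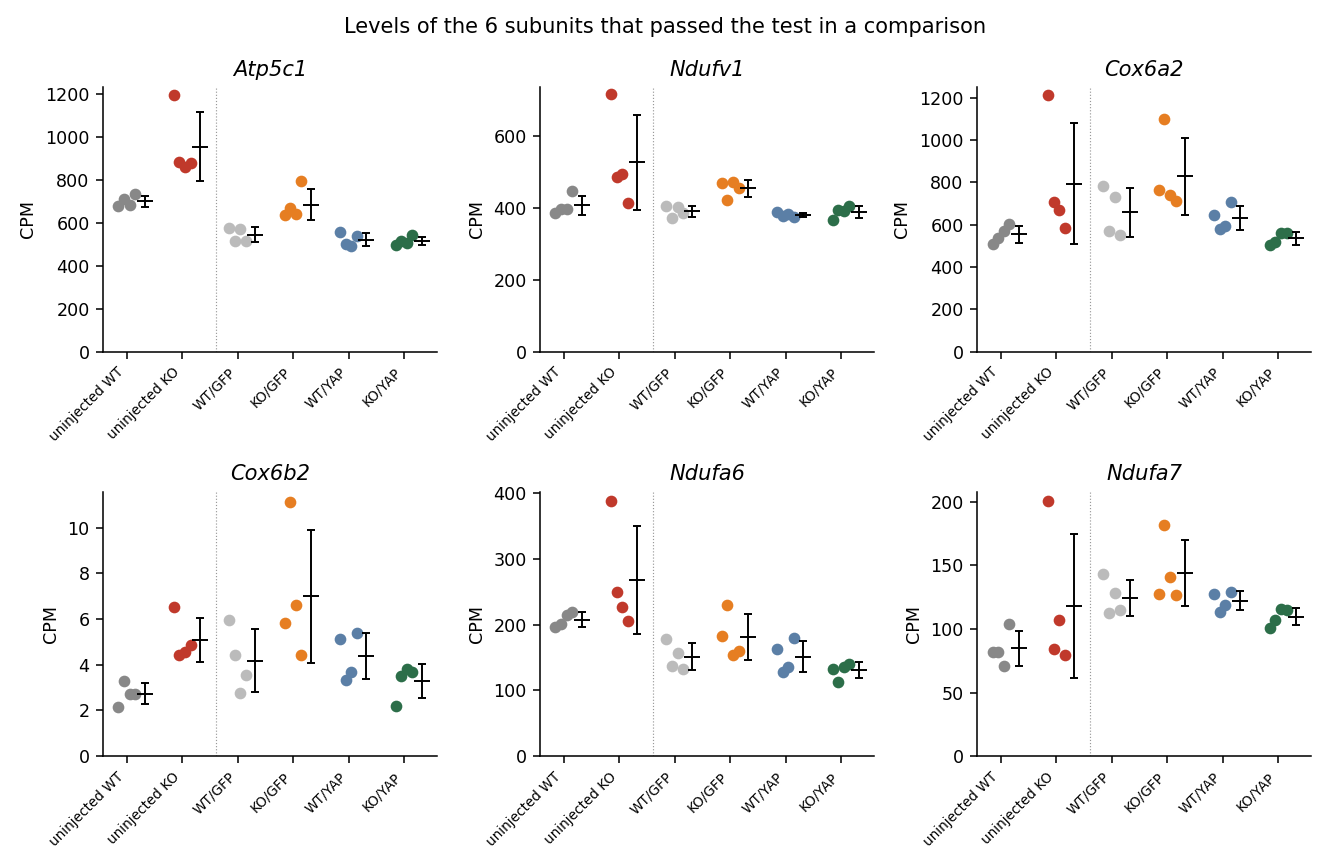
CPM of the 6 members that passed the limma test in at least 1 comparison, with 1 point per library, 4 libraries in each of 6 groups, and the mean with its SD as a black bar beside them; the dotted line separates the tables that were normalised apart. Atp5c1 and Ndufv1 lie higher in KO/GFP than in WT/GFP and KO/YAP, and KO/GFP replicate 2 is the high point for Cox6a2 at 1099 CPM.

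Over all members the median log2 fold change of KO/YAP against KO/GFP was −0.16, against 0.01 over all genes, with 71 of 82 negative. It was −0.06 without KO/GFP replicate 2, with 25 positive, against 0.01 over all genes, and −0.24 without KO/GFP replicate 4. Under total-read scaling it was −0.03, against 0.13 over all genes, and with centring on short genes −0.07, against 0.10. The median was −0.23 for complex IV, −0.17 for I, −0.16 for III, −0.13 for V and −0.03 for II. Groups did not overlap for 13 members, all lower in KO/YAP, where 8.52% of all tested genes were separated in that direction. Besides the 6 that passed they were Ndufb11, Ndufb4, Ndufb9, Uqcrh, Cox5a, Cox7a2 and Cox7b. The 95% interval lay within 0.5 of 0 for 53 members.

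Of the catalytic core subunits only Ndufv1 passed. Sdha was at 1150 ± 213 CPM in KO/GFP and 1161 ± 81.7 CPM in KO/YAP (SD, n = 4), a log2 fold change of 0.03 with a 95% interval of −0.24 to 0.30. Atp5a1 was at 3062 ± 487 and 3132 ± 206 CPM, with an interval of −0.21 to 0.30. Atp5b was at 4198 ± 910 and 4347 ± 280 CPM, with an interval of −0.23 to 0.38. In KO/GFP replicate 2, where the small subunits were high, these 3 genes were at their lowest level of the group, 841, 2420 and 2849 CPM. The core proteins of complex III, Uqcrc1 and Uqcrc2, had log2 fold changes of −0.01 and −0.05. Ndufs1, the largest iron-sulfur subunit of complex I, was at 422 ± 103 and 499 ± 22.5 CPM, a log2 fold change of 0.28 (SE 0.17, limma adjusted p = 0.29).

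Other core subunits were as follows in KO/GFP and KO/YAP. Ndufs3, Ndufs7 and Ndufs8, of the arm that carries electrons to ubiquinone, had log2 fold changes of −0.08, −0.25 and −0.14, and Ndufv2, the partner of Ndufv1, of −0.18. Sdhb, the iron-sulfur subunit, and Sdhc and Sdhd, the membrane anchors, had −0.14, −0.09 and 0.07. Uqcrfs1, the Rieske protein, had −0.03. None of these passed the test.

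**Figure D3:**
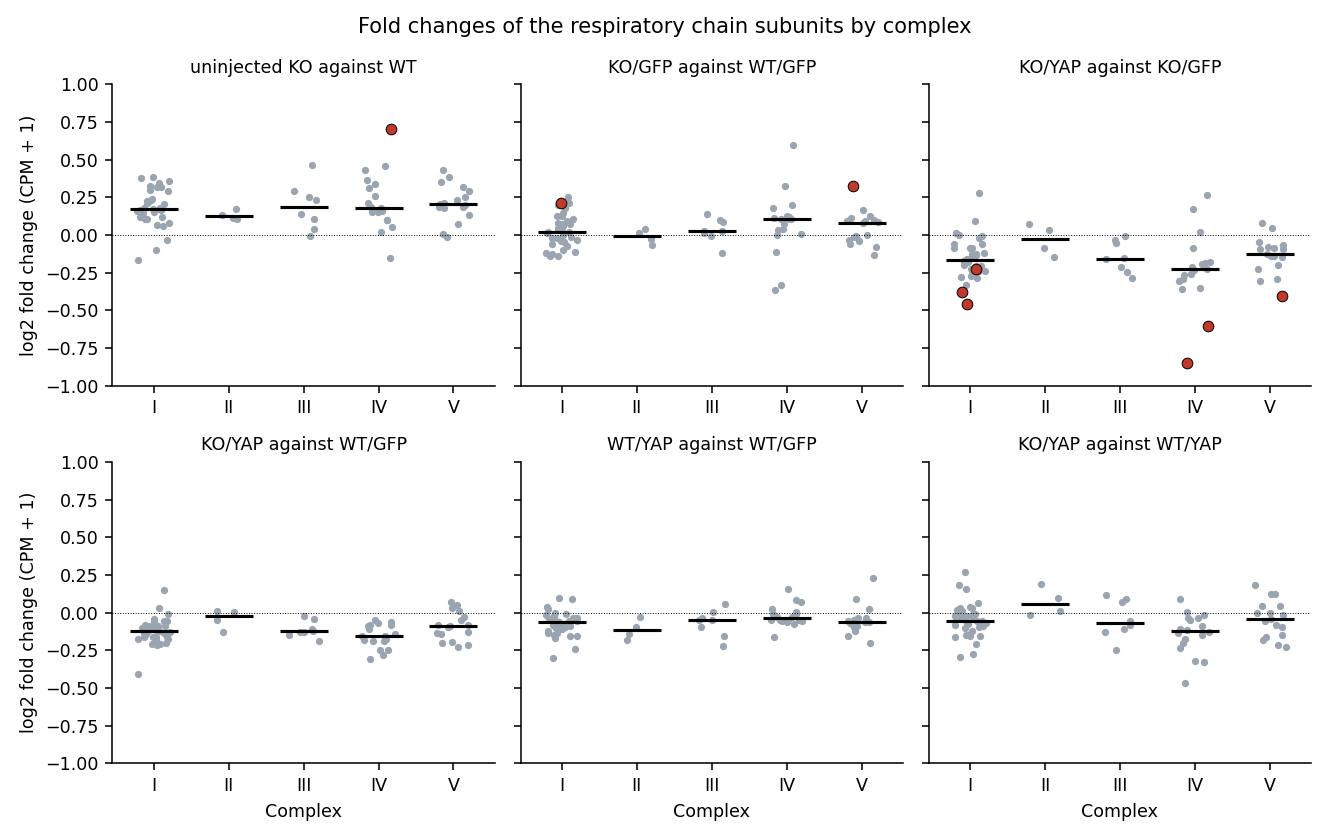
Log2 fold change of each of the 82 members on the log2(CPM + 1) scale, by complex, in the 6 pairwise comparisons, with the median of each complex as a black line and members that passed the limma test in red. Members that passed appear in 3 of the comparisons, 1 in uninjected KO against WT, 2 in KO/GFP against WT/GFP and 6 in KO/YAP against KO/GFP.

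In the remaining comparisons no member passed. KO/YAP against WT/GFP gave 0 of 82 members, where 0.0206% of all genes passed (3 of 14597). The unadjusted p was under 0.05 for 2 members and 6.08% of all genes, and DESeq2 called 0 members and 0.164% of all genes. The median was −0.12 with 74 of 82 negative, against 0.00 over all genes, and −0.03 against 0.09 when libraries were centred on short genes. Without WT/GFP replicate 1, in which 79 of 82 members lay above their mean, it was −0.06 with 15 positive. The lowest p values were those of Ndufb10 (log2 fold change −0.41, SE 0.12, limma adjusted p = 0.68), Cox8a (−0.31) and Cox6a2 (−0.28). Ndufb10, an accessory subunit of the membrane arm, was at 269, 228, 287 and 240.3 CPM in KO/YAP and at 404, 267, 378 and 322 CPM in WT/GFP libraries, and the groups overlapped. The 95% interval lay within 0.5 of 0 for 63 members and within 1 for all 82.

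WT/YAP against WT/GFP gave 0 members and 0 genes of 14597 (0%). The unadjusted p was under 0.05 for 3 members, Atp5f1, Ndufb5 and Uqcrfs1, with log2 fold changes of −0.20, −0.30 and −0.15, and for 6.93% of all genes. DESeq2 called 0 members and 0.0754% of all genes. The median was −0.05, with 14 of 82 positive, and turned to 0.01 with 44 positive without WT/GFP replicate 1. Leaving out WT/GFP replicate 2, 3 or 4 or WT/YAP replicate 2, 3 or 4 also moved it by over 1.5 times, within −0.10 to −0.03. With all libraries the 95% interval lay within 0.5 of 0 for 76 members.

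KO/YAP against WT/YAP gave 0 members, where 0.0411% of all genes passed (6 of 14597). At an unadjusted p under 0.05 there was 1 member, Cox8a, the common form of subunit VIII, against 11.1% of all genes, and DESeq2 called 0 members and 0.459% of all genes. Cox8a was at 191.1, 175.8, 199.5 and 202.3 CPM in KO/YAP and at 270, 241, 251 and 305 CPM in WT/YAP libraries, without overlap, with a log2 fold change of −0.47 (SE 0.13, limma adjusted p = 0.28). Sdhd (0.19) and Cox6a1 (−0.33) came next by p. The median over members was −0.06 with 22 positive, against 0.00 over all genes, and −0.11 with 16 positive under quantile normalisation, against 0.00. It was 0.03 against 0.09 when libraries were centred on short genes. It was −0.01 with 32 positive without WT/YAP replicate 4, and −0.03 with 29 positive without KO/YAP replicate 2.

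The interaction asks whether the change with YAP differed between genotypes. It gave 0 of 82 members, where 7.56% of all genes passed. Atp5c1 (−0.34), Cox6a2 (−0.56, SE 0.19, limma adjusted p = 0.092) and Cox6b2 (−0.92, adjusted p = 0.11, limma) had the lowest p. There were 6 members at an unadjusted p under 0.05, against 23.7% of all genes, and DESeq2 called 1 member, Atp5c1, and 10.6% of all genes. A different change with YAP in KO and WT was thus not shown for any member by the main test.

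Ratios of paired complex IV genes within a library do not depend on how libraries were scaled. The pairs were the muscle forms Cox6a2, Cox7a1 and Cox8b over Cox6a1, Cox7a2 and Cox8a, and Cox4i2 over Cox4i1. Over 24 exact two-sided permutation tests (4 ratios in 6 comparisons) the smallest p possible was 0.029. It was reached in 5 tests, where the adjusted p was 0.14, and no ratio passed. With this floor and 24 tests, a few ratios could not pass however large their differences. The adjusted p therefore cannot decide whether a ratio differed.

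Cox6a2 stood at 2.69 to 3.29 times Cox6a1 in KO/GFP and at 2.35 to 2.65 times in KO/YAP libraries, without overlap. The mean log2 ratio was 1.58 ± 0.16 and 1.33 ± 0.08 (SD, n = 4), a difference of −0.25 (SE 0.09, exact permutation p = 0.029, adjusted 0.14). Cox7a1 over Cox7a2 was 0.344 to 0.419 in uninjected KO and 0.435 to 0.484 in uninjected WT libraries, a log2 difference of −0.32 (SE 0.08, exact permutation p = 0.029, adjusted 0.14). In KO/GFP against WT/GFP the same log2 ratio differed by −0.24 (exact permutation p = 0.11) and the groups overlapped. Cox8b over Cox8a was 0.713 to 0.820 in WT/YAP, 0.845 to 0.981 in WT/GFP and 0.906 to 1.01 in KO/YAP libraries. WT/YAP was thus below both, by 0.20 and 0.34 on the log2 scale (SE 0.07 and 0.06, exact permutation p = 0.029 each, adjusted 0.14). Cox4i2 was at most 0.011 times Cox4i1 in every library, and its log2 ratio was lower in uninjected KO than WT by 0.61 (SE 0.14, exact permutation p = 0.029, adjusted 0.14).

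**Figure D4:**
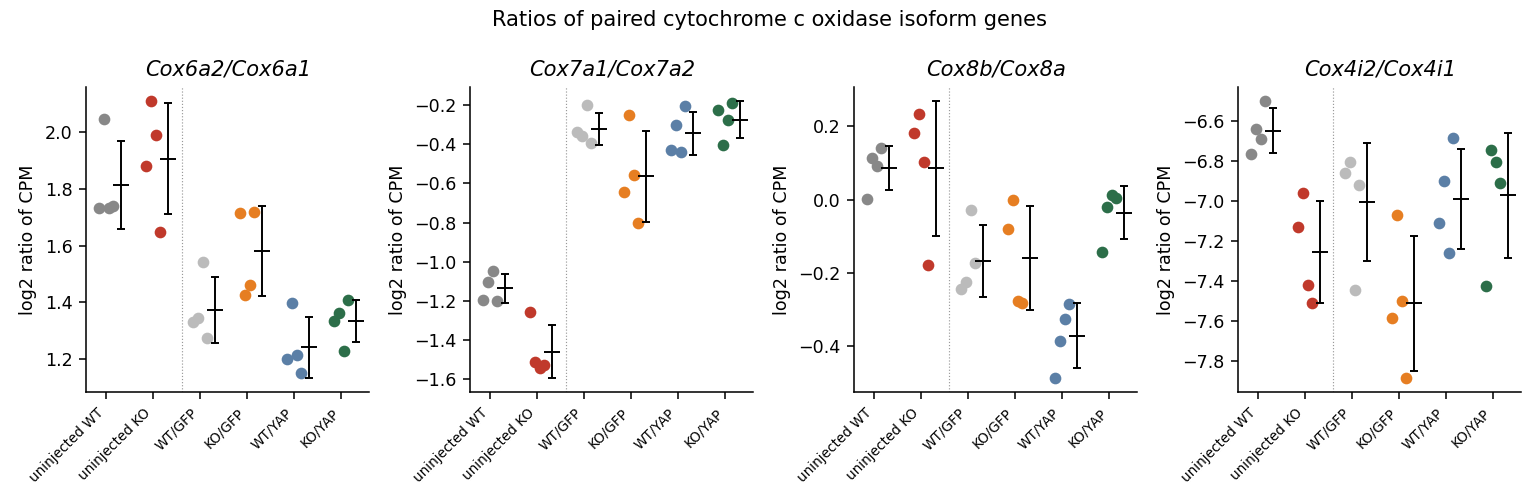
Log2 ratio of CPM for 4 pairs of complex IV genes, with 1 point per library in 6 groups of 4 and the mean with its SD as a black bar; the dotted line separates the tables. Cox6a2/Cox6a1 lies above 0 in every library and is lower in KO/YAP than KO/GFP, and Cox8b/Cox8a is lowest in WT/YAP.

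Genes that work with the members were read against the same shares of all genes, 13.7% in KO/GFP against WT/GFP, 14.8% in KO/YAP against KO/GFP and 7.56% in the interaction. Of 45 assembly factors, Coa3 and Ndufaf5 fell in KO/GFP against WT/GFP (log2 fold changes −0.48 and −0.44, limma adjusted p = 0.014 and 0.028) and Cox10, which acts in making heme a for complex IV, fell in KO/YAP against KO/GFP (−0.32, adjusted p = 0.018, limma). The calls of Coa3, Ndufaf5 and Cox10 were kept under 18, 14 and 18 of 21 alternatives. Of 13 tricarboxylic acid cycle enzymes none passed limma in a pairwise comparison, with 0 to 4 at an unadjusted p under 0.05, and DESeq2 called 1 in KO/GFP against WT/GFP. Sucla2, a subunit of succinyl-CoA ligase, passed in the interaction (0.58, limma adjusted p = 0.036), a call kept under 14 of 28 alternatives and lost without any of 11 libraries. Of 5 listed subunits and carriers outside the name rule, 1 fell with YAP in the KO. This was Atpif1, the inhibitor of ATP hydrolysis by complex V.

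Atpif1, and Esrra, Perm1 and mt-Atp8 below, were chosen for library values after these were seen. It was at 244, 281, 239.7 and 219.9 CPM in KO/GFP, at 162, 167, 167 and 163 CPM in KO/YAP, at 226, 198, 209 and 192 CPM in WT/GFP and at 225, 215, 207 and 256 CPM in WT/YAP libraries. KO/YAP lay below every other injected library, with a log2 fold change of −0.57 against KO/GFP (SE 0.09, limma adjusted p = 0.00050). The change with YAP differed between genotypes (interaction −0.70, SE 0.12, limma adjusted p = 0.0034). Both calls were kept under all alternatives run, 21 and 28.

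Among 17 regulators of respiratory genes, Esrra, the estrogen-related receptor α, and the coactivator Ppargc1b were higher in KO/GFP than WT/GFP (log2 fold changes 0.27 and 0.35, limma adjusted p = 0.025 and 0.030). Esrra was at 141, 141, 142 and 157 CPM in KO/GFP and at 123, 120, 126 and 111 CPM in WT/GFP libraries, without overlap. In KO/YAP it was at 115, 120, 133 and 122 CPM, lower than KO/GFP by 0.24 on the log2 scale (limma adjusted p = 0.038). Over 21 alternatives the calls of Esrra were kept in 14 and 11 and that of Ppargc1b in 13, and all 3 ended under total-read scaling, centring on short genes and without KO/GFP replicate 4. Perm1, a muscle regulator of mitochondrial genes, went the other way. It was at 158, 130.1, 164 and 156 CPM in KO/GFP and at 274, 243, 175 and 180 CPM in KO/YAP libraries, a log2 fold change of 0.50 (SE 0.13, limma adjusted p = 0.018), and it also passed in the interaction (0.72, adjusted p = 0.030, limma). These calls were kept under 18 of 21 and 20 of 28 alternatives, and both ended without KO/YAP replicate 1 or 2. Of the 17 regulators 2 thus passed in each of the comparisons of KO/GFP with WT/GFP and KO/YAP with KO/GFP.

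The 13 subunits encoded in mitochondrial DNA had a median log2 fold change of 0.23 in uninjected KO against WT, 0.28 in KO/GFP against WT/GFP and −0.43 in KO/YAP against KO/GFP. All 13 were negative in the last comparison. Without KO/GFP replicate 2, the library highest for these genes, the last 2 medians were 0.14 and −0.31, and the first was 0.13 without uninjected WT replicate 3. Under quantile normalisation the 3 medians were −0.03, 0.06 and −0.13, and under total-read scaling 0.09, 0.17 and −0.30, where all genes were at −0.12, −0.11 and 0.13. In the 3 comparisons 0, 0 and 1 of them passed the limma test, with 3, 0 and 10 at an unadjusted p under 0.05, where 22.5%, 27.4% and 29.6% of all genes were under it. The 10 became 5 without KO/GFP replicate 2 and 4 without KO/YAP replicate 4. DESeq2 called 1, 0 and 7 of them and edgeR 1, 0 and 4. The one was mt-Atp8, a small membrane subunit of complex V, at 1707, 2579, 1693 and 1686 CPM in KO/GFP and at 1528, 1406, 1260 and 1088 CPM in KO/YAP libraries (log2 fold change −0.52, SE 0.15, limma adjusted p = 0.025). That call was kept under 16 of 21 alternatives and ended without KO/YAP replicate 3 or 4, under quantile normalisation, under centring on short genes and in a fit of the 2 groups alone. Mitochondrially encoded genes took 17.2% to 23.2% of the signal in KO/GFP and 12.9% to 15.9% in KO/YAP libraries, without overlap. They took 14.8% to 19.7% in WT/GFP and 13.9% to 18.4% in WT/YAP libraries.

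Markers of other cell types moved in the same comparisons. In bulk tissue fewer cells of a type and less RNA per cell cannot be told apart. The shares of all genes that passed were 6.69%, 13.7% and 14.8% in uninjected KO, KO/GFP and KO/YAP. Of 8 fibroblast markers 4 were lower in uninjected KO, 6 were lower in KO/GFP and 6 were higher in KO/YAP against KO/GFP. Their sum was 2156 to 3580 CPM in KO/GFP, 4990 to 6002 in KO/YAP, 4615 to 5447 in WT/GFP and 2525 to 3869 in uninjected KO against 5146 to 5380 in uninjected WT libraries. Of 8 macrophage markers 6 were lower, lower and higher in the same comparisons, with sums of 58.0 to 118 CPM in KO/GFP, 116 to 160 in KO/YAP, 122.8 to 198.7 in WT/GFP and 53.4 to 102 in uninjected KO against 102 to 121 in uninjected WT libraries. All 5 erythroid markers were lower in KO/GFP than WT/GFP, with sums of 1209 to 3102 and 3384 to 8408 CPM, and none passed in the other 2 comparisons. Of 7 endothelial markers 1 and 3 were lower in the KO comparisons, and 2 rose and 1 fell with YAP. Of 6 smooth muscle and pericyte markers 1 was lower in each KO comparison and 3 were higher with YAP. No listed marker was at 0 in all libraries of a group. Of 10 cardiomyocyte markers Tnnt2 and Pln rose in both KO comparisons and fell in KO/YAP, and the other 8 did not pass. Cardiomyocyte sums were 58136 to 67117 CPM in KO/GFP and 53170 to 57457 CPM in KO/YAP, without overlap, and 64126 to 79264 CPM in uninjected KO against 56147 to 60975 CPM in uninjected WT, also without overlap. In WT/GFP they were 50442 to 62220 CPM, which overlapped KO/GFP. In the uninjected comparison the 10 cardiomyocyte markers had a median log2 fold change of 0.20, beside 0.18 for the members. The member value was 0.01 without KO replicate 1. The medians of markers and members were 0.08 and 0.03 in KO/GFP against WT/GFP and −0.12 and −0.16 in KO/YAP against KO/GFP. The part of these shifts in the values of the members was not tested.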

How the data were processed

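RNA from mouse heart tissue, labelled heart apex, was sequenced in 24 strand-specific polyA libraries. The authors removed adapters with Cutadapt 2.3, used HISAT2 2.1.0 to place reads on GRCm38, counted genes with StringTie 1.3.4 and computed CPM with edgeR 3.26.1. Whether counting used strand is not given in the sources used here. The values deposited by the authors are a normalised signal, CPM whose column sums of 942566 to 1134439 led to the reading that they rest on TMM-scaled library sizes (not stated in the sources used here), and all were whole multiples of 1 read. Replicates were not pooled.

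Symbols came from GENCODE M21, and levels per kilobase used the summed exon length of a gene, with isoforms not separated. Groups were compared by limma 3.58.1 with a trend on log2(CPM + 1), for genes above 1 CPM in at least 0.5 of a table's libraries (15598 and 14597), with Benjamini-Hochberg adjustment at 0.05. One model held all 16 injected libraries. The authors used Fisher's exact test. Scripts were tested on simulated data. DESeq2 1.42.0 and edgeR 4.0.16 were run on the recovered reads, as alternatives beside other scalings, filters, pseudocounts, a Ddx3y covariate, a replicate block and leaving out each library. All values of the 24 libraries came out whole within 0.1 read. Members and gene lists were chosen with earlier results of these data known. Named were isoform pairs, catalytic core genes, members not listed, Xirp2, and in each comparison the 5 largest members past the threshold or the 3 of lowest p; 1 core gene is not reported here by name.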

Additional observations from a re-analysis of the deposited data

Results flagged for a closer look

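In each group of 4 libraries the sample farthest from the others was tested by Dixon's ratio at the 95% level. Of 132 groups 14 were past it, and chance gives about 1 in 20 for a single group. The groups tested are not independent, since each complex is a part of all members and the same libraries recur. Some genes were also chosen after their values were seen, so the count cannot be set strictly against that rate.

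Uninjected KO replicate 1 was the highest of its group in the median deviation of all members (0.665, others −0.10 to −0.05), of complex I (0.740), III (0.622), IV (0.653) and V (0.658). The same library was high for Atp5c1 (1198 CPM, others 862 to 885), Cox8a (230.0 CPM, others 131 to 143) and Atpif1 (247.2 CPM, others 145 to 161) and in the log2 ratio of Cox7a1 to Cox7a2 (−1.26, others −1.54 to −1.51).

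KO/GFP replicate 2 was the highest of its group for Cox6a2 (1099 CPM, others 711 to 762), Uqcrh (407 CPM, others 314 to 318) and mt-Atp8 (2579 CPM, others 1686 to 1707). KO/GFP replicate 4 was the highest for Esrra (157 CPM, others 141 to 142). Uninjected WT replicate 2 was the highest for the log2 ratio of Cox6a2 to Cox6a1 (2.05, others 1.73 to 1.74).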

How the results depend on the processing

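Counts of members that passed moved by over 1.5 times in the following settings. In uninjected KO against WT, where 1 member passed, there were 0 with a filter above 5 CPM, with the replicate block and with centring on short genes, and 2 with DESeq2. In KO/GFP against WT/GFP, where 2 passed, there were 0 with quantile normalisation and in a fit of only the 2 groups, and 1 with limma without the trend, the replicate block, total-read scaling or short-gene centring. The single member was Ndufa4l2 under total-read scaling and Cox6a2 under short-gene centring. In KO/YAP against KO/GFP, where 6 passed, there were 3 with quantile normalisation, 3 with total-read scaling, 2 with only the 2 groups and 10 with DESeq2. With the replicate block there were 4, Atp5c1, Cox6a2, Cox6b2 and Ndufb10. The interaction had 1 with DESeq2 and 1 with short-gene centring, against 0. Total-read scaling and short-gene centring were chosen after seeing the data. The cause of these changes was not tested.

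Leaving out 1 library at a time gave counts of 0 to 2, 0 to 3 and 2 to 8 in these 3 comparisons. The median over members ranged from 0.01 to 0.26 in uninjected KO, from −0.04 to 0.11 in KO/GFP against WT/GFP and from −0.24 to −0.06 in KO/YAP against KO/GFP. Differences of isoform log2 ratios that were near 0 changed sign: Cox6a2/Cox6a1 in KO/YAP against WT/GFP (−0.071 to 0.018), Cox7a1/Cox7a2 in WT/YAP against WT/GFP (−0.068 to 0.018), Cox8b/Cox8a in uninjected KO (−0.051 to 0.086) and KO/GFP (−0.046 to 0.054) against WT, and Cox4i2/Cox4i1 in KO/YAP against WT/GFP (−0.11 to 0.19), in WT/YAP against WT/GFP (−0.13 to 0.11) and in KO/YAP against WT/YAP (−0.072 to 0.17).

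Total-read scaling took the median log2 fold change of all genes from 0.00 to −0.12 in uninjected KO, from −0.01 to −0.11 in KO/GFP against WT/GFP and from 0.01 to 0.13 in KO/YAP against KO/GFP, and the share of all calls that were higher from 48.3% to 22.1%, from 47.1% to 25.1% and from 53.2% to 78.5%. In the interaction that share went from 50.2% to 71.9%. With short-gene centring it was 36.8% in uninjected KO, 72.8% in KO/YAP against KO/GFP and 67.5% in the interaction. The replicate numbers of the labels showed no clear pairing of the libraries: over 28 pairs with the same number the correlations of their deviations ran from −0.19 to 0.14, and 1 was over 0.1. This looks at replicate numbers only, and a pairing by litter, which the labels do not give, was not tested. Among the members that passed, Cox6b2 was the lowest, at 2.17 to 11.1 CPM.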
